A study of Mus musculus with 6 samples.

Results

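The genes of choroid plexus epithelium were followed through each of the 6 libraries of the mouse lateral septum. The list holds 10 symbols: Ttr, Kl, Clic6, Otx2, Aqp1, Folr1, Enpp2, Slc4a5, Cldn2 and F5l. A gene was taken when its symbol matched a row of the count and FPKM tables, where FPKM is the fragment number of a gene scaled by transcript length and library size. Of the 10 symbols, 9 were found among 35415 genes and all 9 passed the filter on low counts, while F5l matched no row and is not described further. The list was chosen by the levels of these genes in the same 6 pools, so their differences between pools and between groups are given as a description, with no p for a single gene. Counts of calls from the fit over all genes stand beside the share called over all genes, and nothing is read from them.

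Wild-type female C57BL/6 mice, which arrived at about 8 weeks of age, were fed for 12 weeks either control chow (control group) or the same chow with the antipsychotic olanzapine at 50 mg per kg of feed (olanzapine group). The lateral septum, a nucleus that borders the lateral ventricle, was micro-dissected, and the tissue of 3 mice was pooled for each library. Each group has 3 pools, so the spread between single mice is unknown, and a p-value covers the spread between pools. In bulk tissue, fewer cells of a type and less RNA per cell cannot be told apart.

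The choroid plexus is a folded epithelium that hangs into the brain ventricles and secretes cerebrospinal fluid. Its cells move ions and water from blood to fluid, carry folate and other nutrients across, and release carrier proteins such as transthyretin. The homeodomain factor Otx2 is needed to form and maintain this epithelium. Some of these genes have other sources: Enpp2 is also made by oligodendrocytes, Kl and Aqp1 by kidney, and Ttr by liver. Neurons of the lateral septum are mostly GABAergic.

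Total counts lay between 38208153 and 39868872 per pool. Markers of GABAergic and septal neurons were present in every pool, with a summed level over 6 genes of 276 to 440 FPKM. Olanzapine pool 1 stood apart from the others: 8 cortical glutamatergic genes summed to 304 FPKM there and to between 8.70 and 31.1 FPKM in the other 5 pools. The pairwise r, the ratios to Ttr, the group difference and the ependymal sum are therefore also given without it.

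Ttr encodes transthyretin, the carrier of thyroxine and of retinol-binding protein, and is the best-known product of the choroid plexus. It lies on chromosome 18 from 20665280 to 20674321 on the plus strand (build GRCm38, gene models of GENCODE M21, as for the other positions of genes). Its level was 26.6, 1817 and 5192 FPKM in control pools 1, 2 and 3. In olanzapine pools 1, 2 and 3 it was 766, 3319 and 15.8 FPKM. Ttr was thus low in 1 pool of each group, and the ranges of both groups overlapped over most of their width. It was the gene with rank 5 by FPKM in control pool 3 and with rank 3814 in olanzapine pool 3. Its 808 counts in olanzapine pool 3 were 0.00208% of the total (95% Wilson interval 0.00195 to 0.00223%, counting error only), against 0.684% (0.682 to 0.687%) in control pool 3.

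The other secreted or shed products were Kl and Enpp2. Kl encodes Klotho, the co-receptor of fibroblast growth factor 23, which is made mainly by kidney and choroid plexus. Its level was 0.974, 17.9 and 41.2 FPKM in the control pools and 7.14, 30.0 and 0.628 FPKM in the olanzapine pools. Enpp2 encodes autotaxin, the enzyme that makes lysophosphatidic acid. Its level was 64.0, 327 and 722 FPKM in the control pools and 172, 516 and 64.6 FPKM in the olanzapine pools. Kl therefore followed Ttr down to below 1 FPKM, whereas Enpp2 did not go below 64.0 FPKM in any pool. The summed level of 8 oligodendrocyte genes was 1678 to 2281 FPKM over the pools, and the share of Enpp2 that comes from those cells was not tested.

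The 4 members Aqp1, Slc4a5, Cldn2 and Clic6 serve the transport of ions and water. Aqp1, the water channel of the apical membrane, was at 0.209, 5.58 and 13.3 FPKM in the control pools and at 2.69, 10.7 and 0.028 FPKM in the olanzapine pools. Slc4a5, a sodium bicarbonate cotransporter, was at 0.101, 2.96 and 7.56 FPKM in the control pools and at 1.53, 6.92 and 0.00835 FPKM in the olanzapine pools. Both were nearly absent from olanzapine pool 3, with 3 counts of Aqp1 and 2 counts of Slc4a5. Cldn2, the pore-forming claudin of the tight junction, was at 0.245, 5.04 and 12.9 FPKM in the control pools and at 1.94, 9.83 and 0.197 FPKM in the olanzapine pools. Clic6, a member of the chloride intracellular channel family, was at 11.6, 23.5 and 41.8 FPKM in the control pools and at 11.6, 36.0 and 8.18 FPKM in the olanzapine pools. Clic6 kept 19.6% of its highest level in its lowest pool, against 1.53% for Cldn2.

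Folr1 encodes folate receptor alpha, which carries folate through the epithelium. It was at 1.51, 10.4 and 29.7 FPKM in the control pools and at 5.22, 20.9 and 0.889 FPKM in the olanzapine pools. Otx2, the transcription factor of the list, was at 2.06, 3.67 and 5.94 FPKM in the control pools and at 1.77, 5.23 and 1.61 FPKM in the olanzapine pools. Otx2 was the member with the narrowest range, and its lowest pool held 27.0% of its highest level. Folr1 overlaps Anapc15 on the other strand, which had 692 to 788 counts over the 6 pools. The antisense gene Otx2os1 had 0 to 40 counts. Whether reads were counted by strand is not given in the sources used here, so reads of an overlapping pair cannot be told apart.

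**Figure D1:**
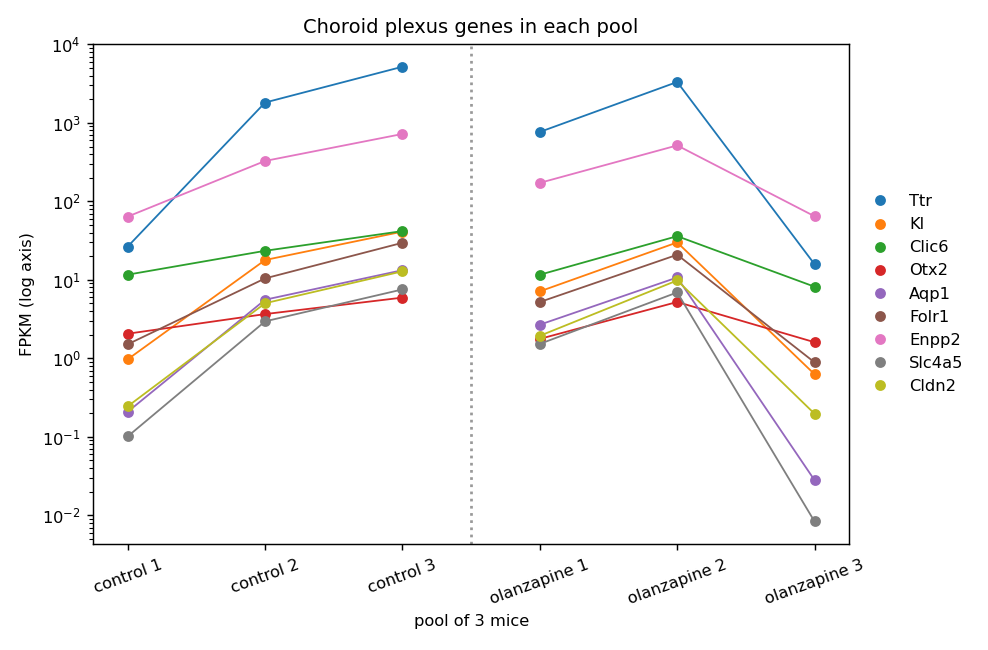
FPKM of the 9 genes (log axis) in each of the 6 pools (horizontal axis), where each point is 1 pool of 3 mice and lines only join the points of a gene within a group. Both groups hold a pool with low levels and pools with high levels, and Ttr runs from 15.8 to 5192 FPKM.

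The sequence before the start of 4 of these genes is shown because the genes varied together across pools. RefSeq windows of 300 bases (250 before to 50 after a start, GRCm38.p6) matched 5 members, namely Kl, Aqp1, Slc4a5, Cldn2 and Otx2, with 4 starts for Otx2. The windows printed for Slc4a5 and Otx2 lie inside their GENCODE M21 gene models (83219828 to 83304945 and 48657677 to 48673819), so these starts are internal. The 250 bases before the start are printed 5′ to 3′ on the strand of the gene, with capitals for a motif match. The window of Otx2 is chr14:48665110-48665359 (minus strand) and its capitals mark the core bound by OTX2 and related homeodomains, read on the opposite strand. The capitals of Cldn2 (chrX:139800558-139800807, plus strand) and Slc4a5 (chr6:83237125-83237374, plus strand) mark the letters TATAAA of the TATA box, for Slc4a5 on the opposite strand. The window of Kl (chr5:150952357-150952606, plus strand) holds no match.
Otx2: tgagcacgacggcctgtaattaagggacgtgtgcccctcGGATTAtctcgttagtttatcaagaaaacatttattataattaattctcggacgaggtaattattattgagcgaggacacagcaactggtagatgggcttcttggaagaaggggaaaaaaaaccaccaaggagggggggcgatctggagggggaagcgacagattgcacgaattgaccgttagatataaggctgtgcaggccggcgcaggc
Cldn2: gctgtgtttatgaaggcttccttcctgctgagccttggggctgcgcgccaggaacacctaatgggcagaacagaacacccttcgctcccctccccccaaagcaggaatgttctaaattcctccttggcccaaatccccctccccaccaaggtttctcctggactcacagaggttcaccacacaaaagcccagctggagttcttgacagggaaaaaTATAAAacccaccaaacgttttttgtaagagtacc
Slc4a5: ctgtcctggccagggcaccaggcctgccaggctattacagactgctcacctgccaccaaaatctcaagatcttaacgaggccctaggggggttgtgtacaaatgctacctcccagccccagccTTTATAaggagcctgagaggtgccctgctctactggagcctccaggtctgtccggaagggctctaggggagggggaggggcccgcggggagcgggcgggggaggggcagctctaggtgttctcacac
Kl: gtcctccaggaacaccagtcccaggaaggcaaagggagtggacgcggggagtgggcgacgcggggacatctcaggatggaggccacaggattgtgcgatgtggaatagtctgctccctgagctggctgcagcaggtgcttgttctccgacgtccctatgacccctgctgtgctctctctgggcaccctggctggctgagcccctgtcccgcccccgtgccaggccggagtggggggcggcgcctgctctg

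The 3 motifs were searched on both strands of the 8 windows of members, and no window held more than 1 match. The OTX2 core TAATCC was in 1 of the 8 windows of members and in 7.06% of all 32851 windows. The forkhead core TGTTTAC was in 0 of 8 and in 3.65% of all windows. The TATA box TATAAA was in 3 of 8 and in 13.6% of all windows, and the match in Cldn2 began 35 bases before the start. The other matches lay further off, at -192 from a start of Otx2 and at -127 in Slc4a5, on the opposite strand. Several of the 8 windows belong to Otx2, so they are not separate genes, and nothing is read from these shares. The GC content of the windows ran from 41.7% in an upstream start of Otx2 to 67.3% in Kl, against a median of 52.7% over all windows. A match is a match of letters and is not evidence of binding.

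The range over the pools was expressed as the ratio of the highest to the lowest pool in counts scaled to library size with TMM factors (CPM). The median ratio of the 9 genes was 65.4, against 1.43 for the median of 17255 genes tested. The ratio was 329 for Ttr, 65.8 for Kl, 65.4 for Cldn2, 33.5 for Folr1, 11.2 for Enpp2, 5.13 for Clic6 and 3.71 for Otx2. For Aqp1 the ratio was 475 (exact 95% interval 162 to 2306) and for Slc4a5 907 (251 to 7496), with intervals that cover counting error only. For ranks and for values over all genes, a count under 3 was taken as 3, which lowers the ratio of Slc4a5. On that basis, among 14279 genes with a mean of at least 50 counts, Slc4a5 ranked 2, Aqp1 4, Ttr 5 and Otx2 427. A ratio above 4 was found for 8 of the 9 members and for 9.94% of all genes tested; since the list was selected on its levels by pool, nothing is read from this share.

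All 9 genes were highest in control pool 3 and lowest in olanzapine pool 3 on the CPM scale. The full order of Ttr, from high to low, was control pool 3, olanzapine pool 2, control pool 2, olanzapine pool 1, control pool 1 and olanzapine pool 3. This order was shared by 7 of the 9 members, Ttr included, and by 0.655% of all genes tested. Clic6 and Otx2 broke it at a single step, where control pool 1 was level with or above olanzapine pool 1. Their ratio of olanzapine pool 1 to control pool 1 was 0.992 and 0.854 in CPM, against 28.6 for Ttr, 12.8 for Aqp1 and 2.67 for Enpp2. At the low end, Enpp2 differed by a ratio of only 1.01 between control pool 1 and olanzapine pool 3, and in FPKM the order of these pools was the reverse (64.0 and 64.6 FPKM), so that it is not resolved.

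Across the 6 pools, Pearson's r of log2(CPM + 0.5) was computed for the 36 pairs of members as a description, since the points share libraries and the genes were chosen for this pattern. The median r was 0.983, from 0.832 between Ttr and Otx2 to 0.999 between Aqp1 and Slc4a5. Spearman's rho was 1 in 22 pairs and at least 0.943 in all 36. Without the highest and the lowest pool the median r was 0.987, and the lowest value was 0.671, again between Ttr and Otx2. The pools left still include control pool 1, where Ttr was also low, and this pool can set much of that r. Without olanzapine pool 1 the median r was 0.994. The median SD of a member over the pools was 2.26 on the log2(CPM + 0.5) scale, and 0.68 after the mean profile of the other members was taken off. What was left was smallest for Folr1 (SD 0.27) and largest for Ttr (SD 1.78), which moved further than the mean profile, and next for Otx2 (SD 1.56), which moved less far. The place of Ttr depends on the pseudocount, which exceeds the lowest CPM of Slc4a5 and Aqp1. Their SDs were below that of Ttr (2.71 and 2.52 against 3.59). Their ratios of highest to lowest pool were above that of Ttr (907 and 475 against 329).

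In the 4 pools with high levels, the ratio to Ttr was nearly fixed for some genes only. It varied by a factor of 1.19 for Folr1, 1.20 for Cldn2 and 1.24 for Kl, but by 2.02 for Otx2. Per 1000 FPKM of Ttr, these pools held 7.93 to 9.86 FPKM of Kl, 5.72 to 6.81 of Folr1, 2.48 to 2.96 of Cldn2, 2.56 to 3.51 of Aqp1 and 1.46 to 2.08 of Slc4a5. The ranges were wider for Enpp2 (139 to 225), Clic6 (8.06 to 15.2) and Otx2 (1.14 to 2.31). Without olanzapine pool 1, the upper ends were 180 for Enpp2, 12.9 for Clic6, 2.02 for Otx2, 6.29 for Folr1 and 3.23 for Aqp1, and the other ranges did not depend on it. In control pool 1 and olanzapine pool 3, where Ttr was low, the ratios departed from these ranges. Per 1000 FPKM of Ttr, Clic6 stood at 438 and 517 FPKM in those pools, Enpp2 at 2407 and 4083, and Otx2 at 77.4 and 101.5. Kl stood at 36.6 and 39.7 and Folr1 at 56.9 and 56.2. Cldn2 stood at 9.21 and 12.5. Aqp1 stood at 7.86 in control pool 1, above its range, and at 1.77 in olanzapine pool 3, below it. Slc4a5 likewise stood at 3.81 and 0.528, and the values of these genes in olanzapine pool 3 rest on 3 and 2 counts.

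A straight line of FPKM against Ttr FPKM over the 6 pools shows the same split between genes. Its value at no Ttr was 29.3% of the highest pool for Otx2, 23.1% for Clic6 and 9.98% for Enpp2. For Cldn2, Folr1, Slc4a5, Kl and Aqp1 it was between 2.15% and 3.59% of the highest pool. Pearson's r with Ttr on the FPKM scale was 0.968 to 0.998 over the 8 genes, a description in which control pool 3 and olanzapine pool 2 carry most of the range. Above olanzapine pool 3, the gain of Otx2 per 1000 FPKM of Ttr was 0.22 FPKM in olanzapine pool 1 and 0.838 to 1.14 FPKM in the other 3 pools with high levels. The gain of Clic6 was 4.59 FPKM in olanzapine pool 1 and 6.50 to 8.48 FPKM in those 3 pools. For Kl the gain in olanzapine pool 1, 8.67 FPKM, lay within the 7.83 to 9.59 FPKM of the others.

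**Figure D2:**
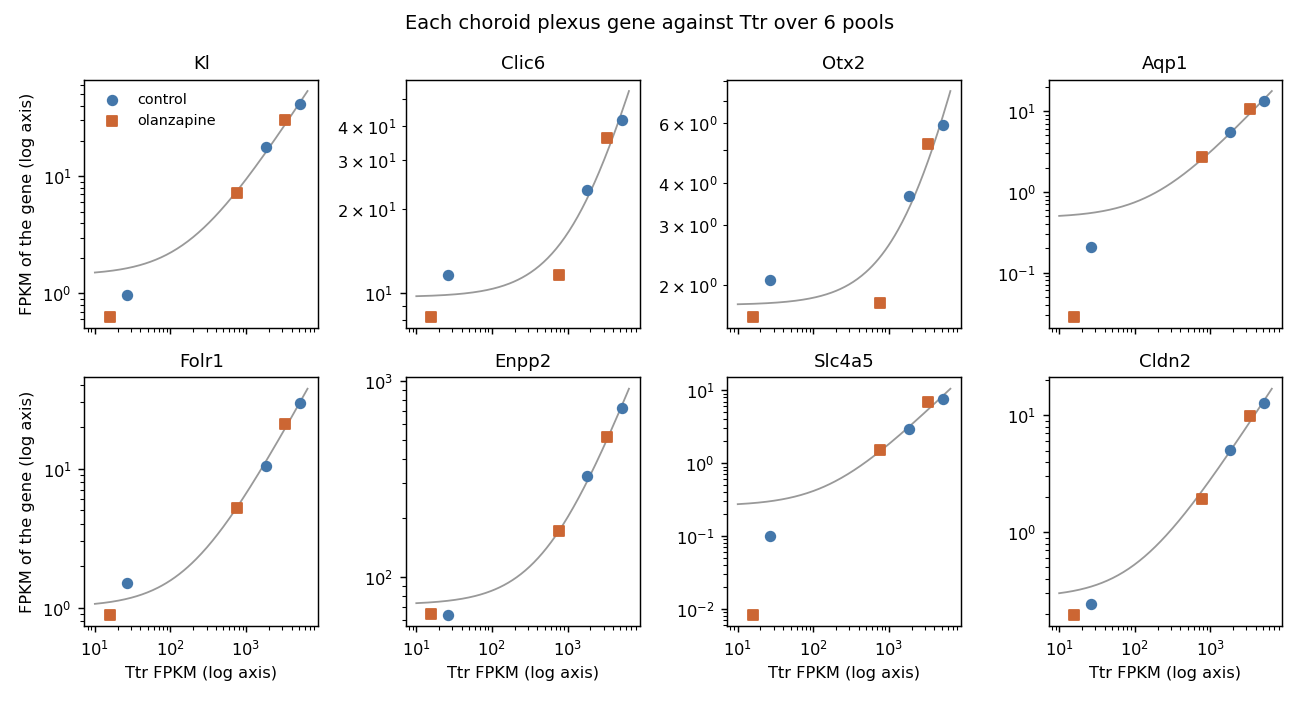
FPKM of each of 8 genes against FPKM of Ttr (both axes log), where each point is 1 pool, circles are control pools, squares are olanzapine pools and the grey curve is the straight line fitted on the linear scale. Otx2 and Clic6 level off at low Ttr (lines that start at 29.3% and 23.1% of the highest pool), and all 8 genes lie below their lines in olanzapine pool 3, with Aqp1 at 0.028 and Slc4a5 at 0.00835 FPKM there.

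The comparison of the olanzapine group with the control group asks whether the feed changed these genes in the septal tissue. None of the 9 genes was called (edgeR's quasi-likelihood test, Benjamini-Hochberg adjusted p under 0.05 and a fold change above 2 or below 0.5), against 1.01% of all genes tested. At an unadjusted p under 0.05 the count was also 0 of 9, against 17.6% of all genes, and DESeq2 called 0 of 9, against 1.6% of its genes. Ttr was 3096 ± 3456 CPM in the control group and 1758 ± 2197 CPM in the olanzapine group (SD, n = 3 pools each). The SD exceeded the mean in both groups, and the log2 fold change of Ttr was -0.82 with an SE of 1.68. Otx2, the member with the smallest SE, was 22.2 ± 10.9 CPM in the control group and 16.0 ± 11.0 CPM in the olanzapine group; its log2 fold change was -0.47, SE 0.50. Of the others, the log2 fold change was -0.71 for Kl, -0.66 for Folr1, -0.64 for Cldn2, -0.60 for Enpp2, -0.54 for Aqp1, -0.50 for Clic6 and -0.37 for Slc4a5, with SE between 0.59 and 1.45. The median over the 9 was -0.60, against 0.00389 over all genes tested.

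The size of these values depended on single pools, and the sign of their median turned only without control pool 3. Without control pool 3, 8 of the 9 log2 fold changes were above 0 and their median was 0.55, with Otx2 at -0.024. Without olanzapine pool 3, 2 of the 9 were above 0 and the median was -0.15. Without olanzapine pool 2 the median was -2.19, without control pool 1 it was -1.11, and without olanzapine pool 1 it was -0.32. It was -0.67 without control pool 2. In each of these fits all 9 values were below 0. None of the 9 genes was called in any of these fits.

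**Figure D3:**
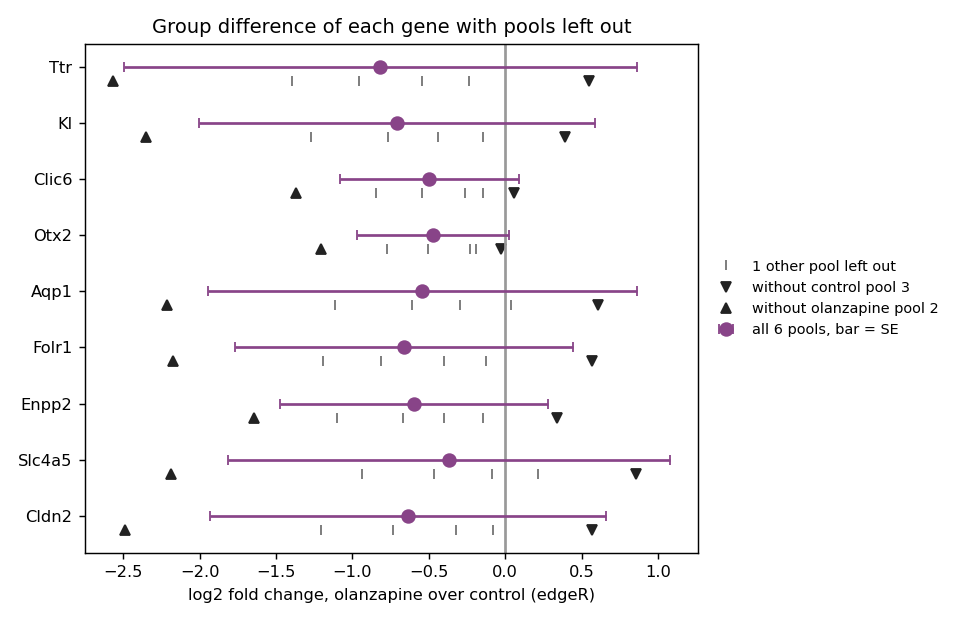
Log2 fold change of each gene, olanzapine over control (horizontal axis, edgeR), with all 6 pools (circle, bar = SE) and with 1 pool left out (marks below each circle). All circles lie below 0 and the bars of all 9 genes pass 0, and without control pool 3 the values of 8 genes lie above 0.

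A second list of genes of the same epithelium held 30 symbols outside the members, of which 29 were in the tables and all 29 passed the filter. None was called between the groups with edgeR or DESeq2, against 1.01% and 1.6% of all genes, and 0 of 29 had an unadjusted p under 0.05, against 17.6% of all genes. The smallest adjusted p of edgeR's test (Benjamini-Hochberg) was 0.38, for Vat1l. Their median log2 fold change was -0.51, and 28 of the 29 were below 0. As for the members, the median turned above 0 only without control pool 3, where it was 0.29 with 24 of 29 above 0. It was -1.79 without olanzapine pool 2, -0.99 without control pool 1 and -0.61 without control pool 2. Without olanzapine pool 1 it was -0.34, and without olanzapine pool 3 it was -0.14. The median ratio of highest to lowest pool was 12.3, and 24 of the 29 had a ratio above 4. The highest pool was control pool 3 for 28 genes, and the lowest was olanzapine pool 3 for 18. With the mean profile of the members, 25 of the 29 had an r above 0.9 over the 6 pools, against 1.7% of all genes tested.

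Ecrg4, a secreted peptide precursor, was at 8.87, 40.5 and 98.2 FPKM in the control pools and at 16.7, 67.0 and 8.66 FPKM in the olanzapine pools. Sostdc1, a secreted antagonist of BMP and Wnt signalling, was at 2.08, 8.59 and 23.2 FPKM and at 4.71, 18.5 and 1.89 FPKM. The uncharacterised 2900040C04Rik was at 0.110, 16.2 and 33.0 FPKM and at 4.50, 25.4 and 0.0564 FPKM. Its lowest pool held 1 count, which gives a ratio of 587 to the highest pool with an exact 95% interval of 105 to 23212. All 3 followed the order of Ttr, but for 2900040C04Rik the last step rests on 2 counts against 1 and is not resolved. Calml4 had 4.77 to 22.0 FPKM over the pools and the collagen gene Col9a3 had 5.66 to 19.3 FPKM, each with control pool 3 highest. Vat1l, the gene of this list with the highest mean level, was an exception at 54.1 to 91.8 FPKM, with an r of 0.23 to the profile of the members.

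Over the whole table, the genes whose log2(CPM + 0.5) most resembled the mean profile of the members were named from 2031 candidates whose mean count was 50 or more and whose pools differed by a ratio of 2 or more. The 10 with the highest r were Tmem72, F5, Kcne2, Pcolce, Wdr86, Igf2, Trpv4, 2900040C04Rik, Pla2g5 and Prr32, with r from 0.994 to 0.999 over 6 pools. Of these, 5 are in the second list of choroid plexus genes and Igf2 is in the list for meninges. Kcne2, a potassium channel subunit, was counted 9, 605 and 1742 times in the control pools and 235, 1033 and 3 times in the olanzapine pools. F5, coagulation factor V, was counted 63, 1212 and 3330 times, and 536, 2104 and 41 times in the olanzapine pools. Igf2, insulin-like growth factor 2, was at 4.55, 19.7 and 47.1 FPKM in the control pools and at 12.9, 35.8 and 2.76 FPKM in the olanzapine pools. Among the candidates, 132 had an r above 0.9.

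Partners of the members in other brain cells varied less. Of 11 ion and water genes used in fluid secretion and shared with other cells, 0 were called and 0 had a ratio above 4 between pools, against 1.01% and 9.94% of all genes. Atp1b1, a subunit of the sodium pump, was at 540 to 637 FPKM, and Car2, carbonic anhydrase 2, at 120 to 151 FPKM. Of 10 genes that carry or read thyroid hormone and retinol, 0 were called. Rbp4, the retinol-binding protein that transthyretin carries, was singled out after its values were seen. It was at 3.17, 4.05 and 4.38 FPKM in the control pools and at 12.0, 8.56 and 6.50 FPKM in the olanzapine pools, and the groups did not overlap. Its log2 fold change was 1.20 with an SE of 0.24 and an adjusted p of 0.0504 (edgeR, Benjamini-Hochberg), just outside the threshold. It was called in 3 of 14 alternatives, DESeq2 among them, with adjusted p from 0.00011 to 0.17. Rbp4 is also made by liver, and the hepatocyte genes described below were higher in the same 3 pools; their part in its level was not tested. Thra, a thyroid hormone receptor, was at 113 to 127 FPKM and Dio2, which activates thyroxine, at 8.63 to 15.4 FPKM. Slco1c1, a thyroxine transporter of brain capillaries, glia and choroid plexus, ran from 10.8 FPKM in olanzapine pool 3 to 26.6 FPKM in control pool 3, with an r of 0.968 to the profile of the members. Of 8 genes of folate uptake and use, 0 were called, and their summed level was 23.3 to 31.0 FPKM. Slc46a1, the proton-coupled folate transporter, was at 5.06 to 7.61 FPKM and Mthfd1 at 9.79 to 13.2 FPKM. Of the partners of Klotho and the receptors of lysophosphatidic acid, 8 of 9 genes were tested and 0 were called. Fgfr1, which binds Klotho, was at 25.1 to 26.5 FPKM in the control pools and at no more than 22.6 FPKM in the olanzapine pools, so the groups did not overlap. Its log2 fold change was -0.29 with an SE of 0.065 and an adjusted p of 0.063 (edgeR, Benjamini-Hochberg). The receptor Lpar1 was at 7.12 to 9.43 FPKM and Lpar6 at 1.03 to 2.18 FPKM. Of the 8 tested genes, 7 had a log2 fold change below 0. Among weakly expressed receptors, Lpar3, Lpar4 and Lpar5 were at -0.94, -1.12 and -1.22, with adjusted p of 0.19, 0.068 and 0.21 (edgeR, Benjamini-Hochberg). The share of all genes without overlap between groups is not given here, and nothing is read from that of Rbp4 or Fgfr1. An unadjusted p under 0.05 was found for 2 of 11 genes of fluid secretion, 2 of 10 of thyroid hormone and retinol, 0 of 8 of folate, and 5 of 8 tested partners of Klotho and receptors, against 17.6% of all genes, and the 0 calls in each of these 4 lists stand against 1.01% of all genes.

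Markers of neighbouring tissue were set beside the members, whose own summed level was 107, 2213 and 6067 FPKM in the control pools and 970, 3955 and 91.9 FPKM in the olanzapine pools. Ependymal cells line the same ventricle. The 13 ependymal genes summed to 191, 235 and 322 FPKM in the control pools and to 110, 231 and 195 FPKM in the olanzapine pools. All 13 were lowest in olanzapine pool 1, without which the lowest sum was 191 FPKM, and 12 were highest in control pool 3. None of the 13 was called with edgeR, against 1.01% of all genes, and 3 had an unadjusted p under 0.05, against 17.6%. All 13 log2 fold changes were below 0, with a median of -0.51 (-0.30, and 12 of 13 below 0, without olanzapine pool 1). In control pool 1 and olanzapine pool 3, the ependymal genes Rarres2 (46.8 and 51.6 FPKM), Ccdc153 (29.9 and 30.9 FPKM) and Rsph1 (23.1 and 22.7 FPKM) were present while Ttr was at 26.6 and 15.8 FPKM. The order of the ependymal sum therefore differed from that of the choroid plexus genes.

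The 12 genes of meningeal fibroblasts summed to 14.5, 36.3 and 69.7 FPKM in the control pools and to 29.2, 53.4 and 9.68 FPKM in the olanzapine pools, in the same order as Ttr. Igf2 made up 47.1 of the 69.7 FPKM in control pool 3, and without it the 11 others summed to 9.97, 16.6 and 22.6 FPKM and to 16.3, 17.6 and 6.92 FPKM. Slc6a20a was at 1.16 to 7.15 FPKM and the collagen-binding Dcn at 2.04 to 5.19 FPKM, both lowest in olanzapine pool 3 and highest in control pool 3. The part of meningeal tissue in the levels of the members was not tested.

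The liver also makes transthyretin, and 10 hepatocyte genes were therefore followed. They summed to 11.7, 14.0 and 8.17 FPKM in the control pools and to 135, 178 and 139 FPKM in the olanzapine pools, and all 10 were called higher in the olanzapine group, against 1.01% of all genes called in either direction. The list was chosen with earlier results of these data known, so nothing is read from this count. In the edgeR test, with Benjamini-Hochberg adjustment, the albumin gene Alb had a log2 fold change of 3.80 with an SE of 0.23 and an adjusted p of 0.000301. The log2 fold change was 3.93 for Apoa1, 4.09 for Ahsg, 5.02 for Fgb, 4.93 for Hnf4a, 4.68 for Ambp, 3.71 for Gc, 2.74 for Cyp2e1, 2.46 for Apoa2 and 2.21 for Apoh. In olanzapine pool 3, Alb was at 66.9 FPKM and Ttr at its lowest level of 15.8 FPKM. In control pool 3, Alb was at 3.30 FPKM and Ttr at its highest level. The source of the hepatocyte transcripts was not tested, nor whether any of the Ttr came from liver.

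Kidney, another source of Kl, Aqp1 and Cldn2, was nearly without signal. The 9 kidney genes summed to 0.199 to 0.246 FPKM, with Umod and Kap at 0 in every pool, and Slc12a3 and Cubn reached at most 0.0536 and 0.0762 FPKM. The 5 red cell genes, followed because red cells hold Aqp1, summed to 88.0 to 118 FPKM, led by Hbb-bs, Hba-a1 and Hba-a2, with 0 called. Oligodendrocyte genes, among them Mbp and Cnp, varied by a median ratio of 1.36 between pools. Endothelial genes, led by Cldn5, Slco1a4 and Pecam1, summed to 30.0 to 36.6 FPKM in the control pools and to 17.6 to 35.0 FPKM in the olanzapine pools, with 0 called. Septal and GABAergic genes, led by Gad1, Gad2 and Slc32a1, varied by a median ratio of 1.81. Cortical genes, led by Slc17a7, Neurod6 and Tbr1, were highest in olanzapine pool 1 for 8 of 8 genes, a pool in which Ttr was at 766 FPKM, and 0 of the 8 were called. At an unadjusted p under 0.05, the edgeR counts were 0 of 12 for meninges, 0 of 5 for red cells, 2 of 6 for endothelium, 3 of 6 for septal and GABAergic neurons and 2 of 8 for cortical neurons, against 17.6% of all genes, with 1.01% of all genes called.

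**Figure D4:**
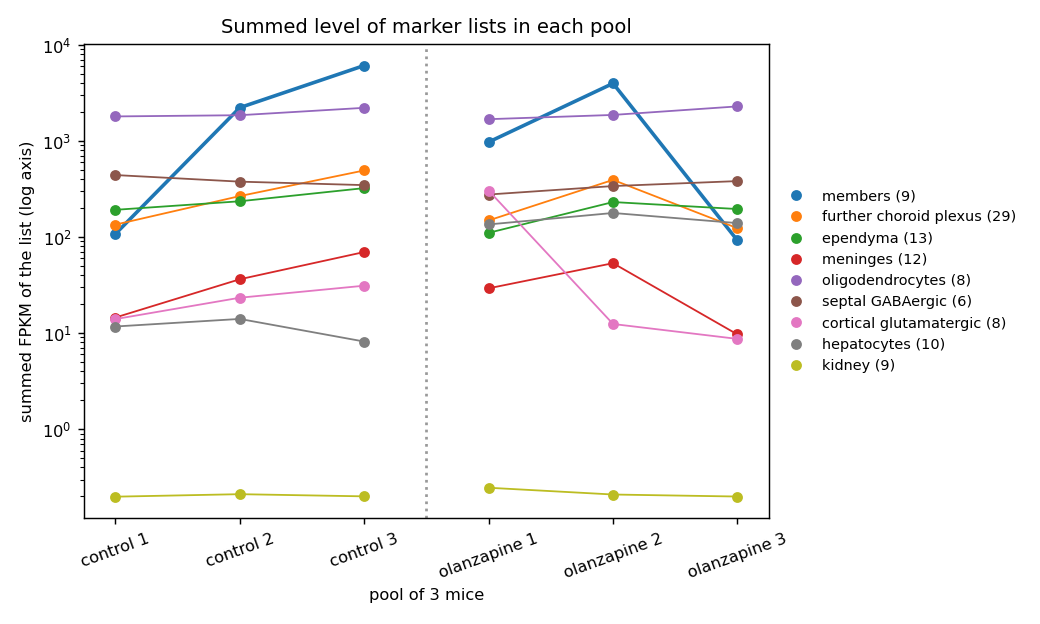
Summed FPKM of each marker list (log axis) in each pool (horizontal axis), where the number of genes in the tables is given in brackets and lines only join the pools of a group. The members run from 91.9 to 6067 FPKM, the ependymal genes from 110 to 322 FPKM, and the hepatocyte genes separate the groups at 8.17 to 14.0 against 135 to 178 FPKM.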

How the data were processed

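The lateral septum was measured by paired-end RNA-seq in 3 control and 3 olanzapine pools. The authors trimmed reads with fastp, aligned them with HISAT2 to mm10 (per the submitters' processing notes) and counted them with HTSeq-count; the deposited values are raw counts per gene. The authors also deposited FPKM values. Versions, annotation, strand setting and the handling of multiply mapped reads are not given in the sources used here. Pools were grouped by their labels, and 0 columns of sample values were left unused.

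Counts were normalized with TMM and tested in edgeR 4.0.16 (R 4.3.3) with the quasi-likelihood F test, after filterByExpr (minimum count 10, minimum total 15), which kept 17255 of 35415 genes. A gene was called at a Benjamini-Hochberg adjusted p under 0.05 over all genes tested and a log2 fold change beyond 1. The SE is the log2 fold change divided by the square root of F. DESeq2 1.42.0, limma 3.58.1 on log2(FPKM + 0.1) and log2(FPKM + 1), other normalizations and filters, and each pool left out were the alternatives. Levels between genes were compared in FPKM, between pools in TMM-scaled CPM with a pseudocount of 0.5. The procedure was tested on simulated data. Intervals are at 95% and cover counting error only; with total counts of 38208153 to 39868872 per pool, a gene at 0 may have up to 3 counts.

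The members and lists were chosen with earlier results of these data known. The text names all members; the 6 genes of the second choroid plexus list and the 3 of each other list with the highest mean FPKM, plus any called, with a few genes not reported here; and the 10 genes with the highest r to the members. Rbp4, Lpar3, Lpar4, Lpar5, Umod, Kap and overlapping genes were named after their values were seen. Samples with the same replicate number did not deviate together, with r of 0.054, 0.036 and -0.30 over 17255 genes. Promoter windows came from RefSeq (GRCm38.p6).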

Additional observations from a re-analysis of the deposited data

How the results depend on the processing

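The count of members called was 0 in the reported fit and in all 14 alternatives, and so was the count of further choroid plexus genes called. The members' median log2 fold change (-0.60) depended on the pools used, from -2.19 to 0.55 with 1 pool left out. It was above 0 only without control pool 3. With the replicate block the median was -0.047 (3 of 9 above 0), and 86 genes were called over the whole table against 174 without it; the labels do not pair the pools beyond the number. DESeq2 called 305 genes and limma on log2(FPKM + 1) called 65, and with 1 pool left out the count lay between 85 and 176, without control pool 2 and without olanzapine pool 1. The cause was not tested, and fits without a pool had fewer samples. Of 198 single-gene values recomputed, 196 stayed within the spread between pools. That spread is wide, and log2 fold changes of Ttr from -2.57 to 0.55 counted as within it. A ratio cannot change when a pool other than the highest or lowest is left out, so stability is not read from this count. The ratios of Aqp1 and Slc4a5 fell to 62.3 and 73.0 without olanzapine pool 3. The median ratio was 41.5 to 65.4, the median pairwise r 0.980 to 0.994 and the median SD after the shared profile 0.36 to 0.76. Another pseudocount does not enter the ratios, so that alternative gave no value for them. Depth limits Aqp1 and Slc4a5 in olanzapine pool 3, at 3 and 2 counts, and 3 pools per group limit every comparison of the groups.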
